A study of Mus musculus with 2 samples.

Results

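The regions described here are the 425 LSD1 peaks on mouse chromosome 11, out of 11797 peaks in the authors' deposited list. They were chosen by chromosome alone: every row of the list placed on chromosome 11 of the build mm9 was kept. LSD1 was mapped by chromatin immunoprecipitation and sequencing (ChIP-seq) in C2C12 cells, an established mouse myoblast line. Both groups, 1 ChIP library made with an anti-LSD1 polyclonal antibody and 1 input library made with no antibody, came from cells grown in 10% fetal bovine serum and then kept in 2% horse serum for 48 h to start differentiation, with 25 mM glucose throughout. No genetic change of the cells is given in the labels. Chromatin was crosslinked with formaldehyde and disuccinimidyl glutarate, a protein-to-protein crosslinker, so a peak can also mark DNA that LSD1 reaches through a partner protein.

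LSD1, also called KDM1A, removes methyl groups from lysines of histone H3 with flavin as its cofactor, and works inside larger complexes, of which the CoREST complex is the best known. It does not read a DNA sequence on its own and is brought to enhancers and promoters by partner proteins. In muscle precursors it is known as a partner of the myogenic factor MyoD. Chromosome 11 is known as one of the most gene-rich chromosomes of the mouse, but gene content was not counted here, and no gene is named because coordinates of another build were not used. Chromosome 11 was compared with the 15 autosomes that remain without chromosomes 4, 8 and 15, to see whether its peaks were longer and fewer.

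Each peak has a position, a length and a score from the authors' peak calling. What scale the score is on is not given in the sources used here, and it serves only to rank and class peaks of this list. With 1 library per group there is no replicate error, no test was made, and the intervals below are 95% intervals that cover counting error only. They treat peaks as independent, although neighbouring peaks may not be, so they can be too narrow. The number of weaker sites on chromosome 11 that were not called cannot be stated, as the sequencing depth is unknown. The question about chromosome 11 was also posed with earlier results of this list known, so each comparison is a description of the list.

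Chromosome 11 had the longest typical peak of all 19 autosomes and X. Its median length was 486 bp (interval 458 to 513 bp), against 436 bp over the 7618 peaks of the 15 other autosomes, a difference of 50 bp. The medians of those 15 autosomes ran from 417 bp on chromosome 9 to 470 bp on chromosome 17. For 7 of the 15 the whole interval of the median lay below that of chromosome 11. For the other 8, namely chromosomes 3, 5, 10, 13, 16, 17, 18 and 19, the intervals overlapped. Intervals of the differences were not computed, and overlap alone does not settle whether the lead of chromosome 11 over them exceeds counting error. The same holds for 2 of the chromosomes left out, 4 (470 bp, interval 451 to 492 bp) and 15 (462.5 bp, interval 447 to 483 bp). Of its peaks, 256 (60.2%, exact interval 55.4 to 64.9%) were longer than the pooled median of the others.

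The difference in length was largest in proportion around the median and upper quartile, and the order turned for the widest peaks. At the lower quartile, chromosome 11 peaks were 379 bp long against 359 bp on the other autosomes, and at the upper quartile 665 bp against 597 bp. Its median and upper quartile were above those of all 15 other autosomes. At the 90th percentile the lengths were 842 and 787 bp, and 12 of the 15 autosomes lay below chromosome 11. At the 99th percentile the order turned: 1289 bp on chromosome 11 against 1623 bp on the others, where 8 of the 15 lay below it. Without the dense regions of the list (chains of at least 20 peaks with starts within 50 kb of the next, none of them on chromosome 11), the 95th percentile of the others was 900 bp against 1009 bp on chromosome 11, and the 99th was 1400 bp, still above chromosome 11. The class from 500 bp to under 1 kb held 184 of the 425 peaks (43.3%, exact interval 38.5 to 48.2%), against 33.3% on the other autosomes.

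**Figure D1:**
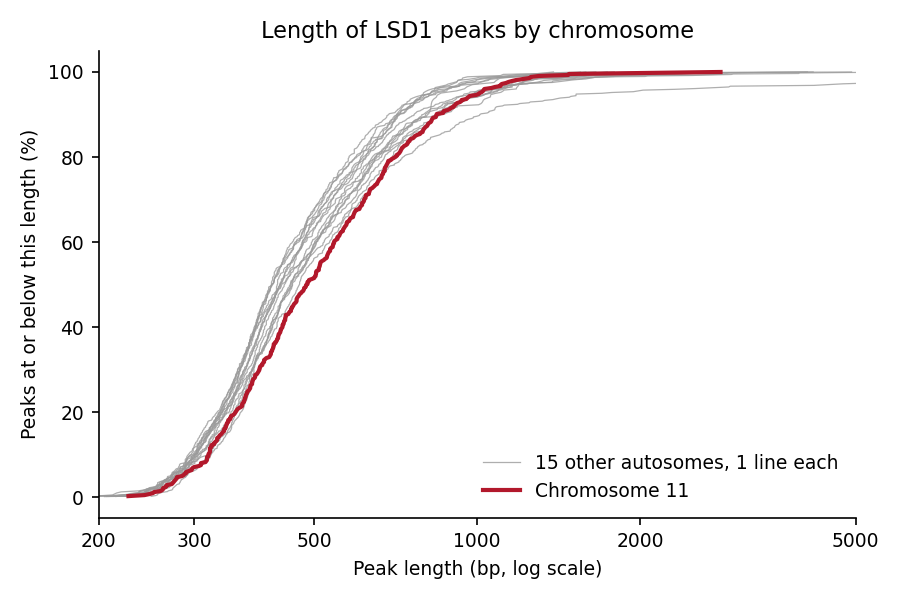
Cumulative share of peaks (%) against peak length (bp, log scale, which ends short of the widest peaks of some chromosomes), with chromosome 11 in red and each of the 15 other autosomes as a grey line. The red line runs to the right of the grey lines around its median of 486 bp and joins them again above 1000 bp.

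Broad peaks were few. On chromosome 11, 23 peaks (5.41%, exact interval 3.46 to 8.01%) were 1 kb or longer, against 4.54% on the other autosomes, which lies inside that interval. Without dense regions the share on the others was 3.38%, below the interval, a ratio of 1.60 (interval 1.02 to 2.37). Only 2 peaks (0.471%, exact interval 0.057 to 1.69%) reached 2 kb, against 0.696%. Mean length differed less than the median: it was 552 bp on chromosome 11 and 535 bp on the others, where the standard deviation over peaks was 560 bp against 258 bp on chromosome 11. Chromosome 5, with peaks of up to 21363 bp, had the highest mean, 848 bp.

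Chromosome 11 held fewer peaks than most of the autosomes compared, but was not the sparsest. Its 425 peaks lay over a span of 118.8 Mb, measured from its first to its last peak, which gives 3.58 peaks per Mb. The pooled density of the 15 others was 3.99 per Mb, a ratio of 0.896 (interval 0.811 to 0.988). In the order of density it was sixth from the lowest of 16, above chromosomes 7 (2.75), 9 (2.93), 19 (3.47), 6 (3.50) and 2 (3.53), and next below chromosome 5 (3.61). Its peaks together covered 234 kb, or 0.197% of the span, in the middle of the range of the others (0.130 to 0.309%). The interval included 1 without dense regions (ratio 0.943, interval 0.853 to 1.04) and with peaks within 10 kb counted once (0.953, interval 0.856 to 1.06). It also did with neighbouring peaks joined (0.931, interval 0.841 to 1.03) and among peaks in the upper 2 of 4 score classes (0.973, interval 0.849 to 1.11).

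Few peaks and long peaks did not go together across chromosomes. Over the 16 autosomes, density and median length had a Spearman coefficient of 0.46, and over the 15 without chromosome 11 it was 0.58, so denser chromosomes tended to have longer peaks. These points share the same pair of libraries and differ in how many peaks stand behind each. Chromosome 11 lay off that trend, with a low density and the highest median length. Chromosomes 2 and 6, at nearly the same density, had medians of 432 and 420 bp.

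**Figure D2:**
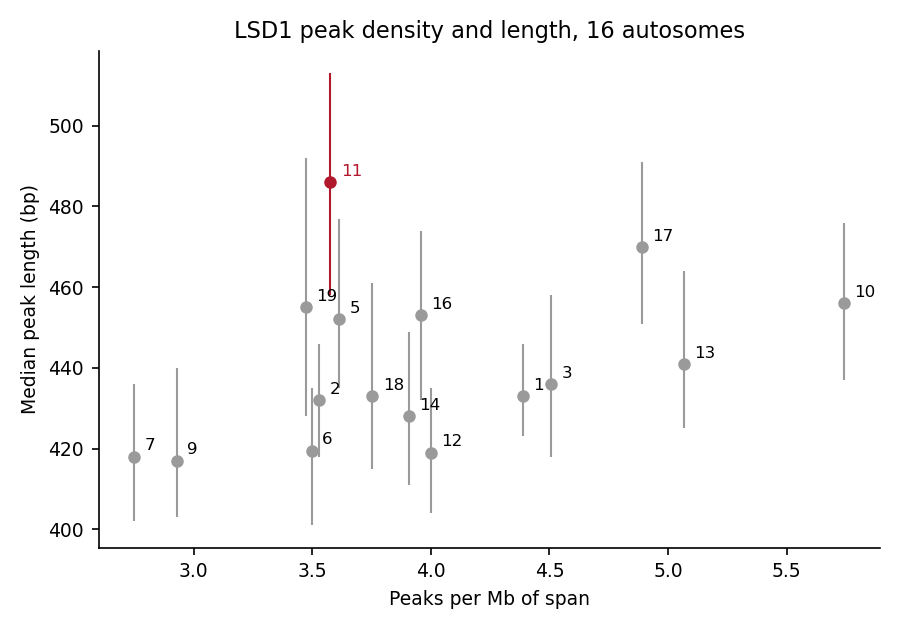
Median peak length (bp) against peaks per Mb of span for the 16 autosomes, labelled by number, with bars for the 95% order-statistic interval of the median. Chromosome 11 (red) stands at 3.58 peaks per Mb and 486 bp, above chromosome 17 at 470 bp and chromosomes 19 and 5 beside it at 455 and 452 bp.

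The shortfall in number was widest among the lowest-scoring peaks, and the third score class was also below the pooled value of the others. Peaks were put into 4 classes at the quartiles of the score over the whole list, 59.97, 78.25 and 119.41. In the lowest class chromosome 11 had 78 peaks, or 0.656 per Mb, less than each of the 15 other autosomes (0.670 to 1.41). In the next classes it had 115 peaks (0.968 per Mb, with 9 of the 15 below it) and 99 peaks (0.833 per Mb, with 5 below it). In the top class it had 133 peaks, or 1.12 per Mb, and 10 of the 15 autosomes had fewer. From the lowest to the top class, its peaks per Mb were at 0.658, 0.965, 0.835 and 1.13 times the pooled value of the others.

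As a share of its own peaks, chromosome 11 had the most top-class and the least lowest-class peaks of all 19 autosomes and X. The top class made up 31.3% of its peaks (exact interval 26.9 to 35.9%) against 24.9% on the other autosomes. The lowest class made up 18.4% (exact interval 14.8 to 22.4%) against 25.0%. The median score was 84.38 (interval 77.7 to 93.07), above all 15 others (74.58 to 80.6), although each of their intervals overlapped that of chromosome 11. Scores of 200 or more belonged to 54 peaks (12.7%, exact interval 9.69 to 16.3%), against 9.03% on the other autosomes. The highest on the chromosome was 783.27, which ranked 38 in the list. It was close to the median of 773.65 for the highest scores of the 15 others.

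Longer peaks had higher scores. Both values come from the same peak calling on the same libraries. Over the 425 peaks the Spearman coefficient was 0.69, and over the peaks of the 15 other autosomes it was also 0.69. Within score classes the difference in length was smaller than overall. In the lowest class the median was 345 bp on chromosome 11 and 337 bp on the others, and in the second class 389 and 388 bp. In the third class it was 503 bp (interval 468 to 542 bp) against 460.5 bp, above all 15 autosomes (435.5 to 491 bp). In the top class it was 670 bp against 647 bp, with 10 of the 15 below. Weighted by its own peaks in each class, chromosome 11 was longer by 18.8 bp, compared with 50 bp when score was not considered.

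**Figure D3:**
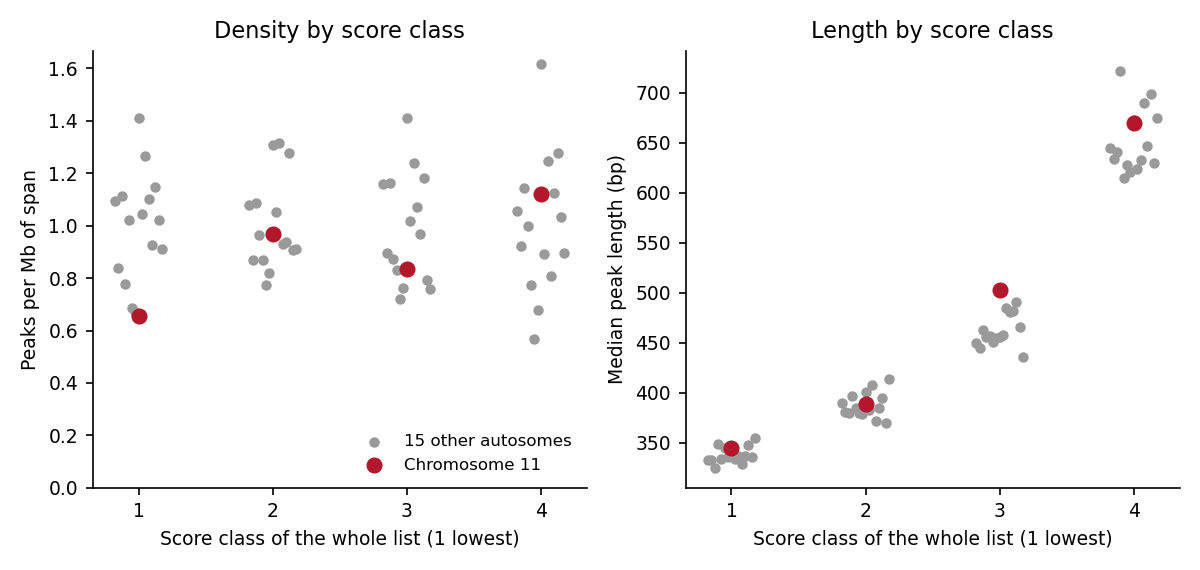
Peaks per Mb of span (left) and median peak length in bp (right) in the 4 score classes of the whole list, with chromosome 11 in red and the 15 other autosomes in grey, 1 point each. Chromosome 11 is the lowest point in class 1 on the left (0.656 per Mb) and the highest in class 3 on the right (503 bp), and lies among the other points elsewhere.

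Along the chromosome the share of empty windows was within the range of the other autosomes. Of 120 windows of 1 Mb, 9 were empty, 23 held 1 peak, 62 held 2 to 5 and 26 held 6 or more, with a median of 3. Peaks were placed by their start. The peak that starts at 3000000, the last base of the window from 2 to 3 Mb, is the only 1 counted there, though nearly all of it lies in the next window. The empty share was 7.5%, against a median of 9.4% on the 15 others (3.23 to 20.8%). Those 26 windows carried 191 peaks, 44.9% of all. The fullest windows were 60 to 61 Mb and 105 to 106 Mb with 12 peaks each, followed by 3 to 4 Mb and 12 to 13 Mb with 10 each. The first pair were unlike in kind: the median length was 528 bp and the median score 118.65 at 60 to 61 Mb, against 394 bp and 73.55 at 105 to 106 Mb.

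The counts per window varied less than on most chromosomes. Their variance was 1.90 times their mean, against a median of 3.76 over the 15 other autosomes. Only chromosomes 9 (1.59) and 19 (1.89) were lower. Without dense regions the median of the others was 2.73. With peaks within 10 kb counted once, the ratio was 1.57 on chromosome 11 and the median of the others 1.95, so much of the contrast rests on close peaks elsewhere. The fullest window of 12 peaks was also low beside a median of 22 for the fullest windows of the others. The longest stretches without a peak were 34562464 to 37452266 (2.89 Mb), 26204397 to 28420963 (2.22 Mb) and 112841563 to 114848091 (2.01 Mb). On the other autosomes the longest distance between neighbouring starts reached 7.21 Mb, but among 7603 distances, against 424 on chromosome 11. Distances over 1 Mb made up 4.25% on chromosome 11 and 5.22% on the others.

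**Figure D4:**
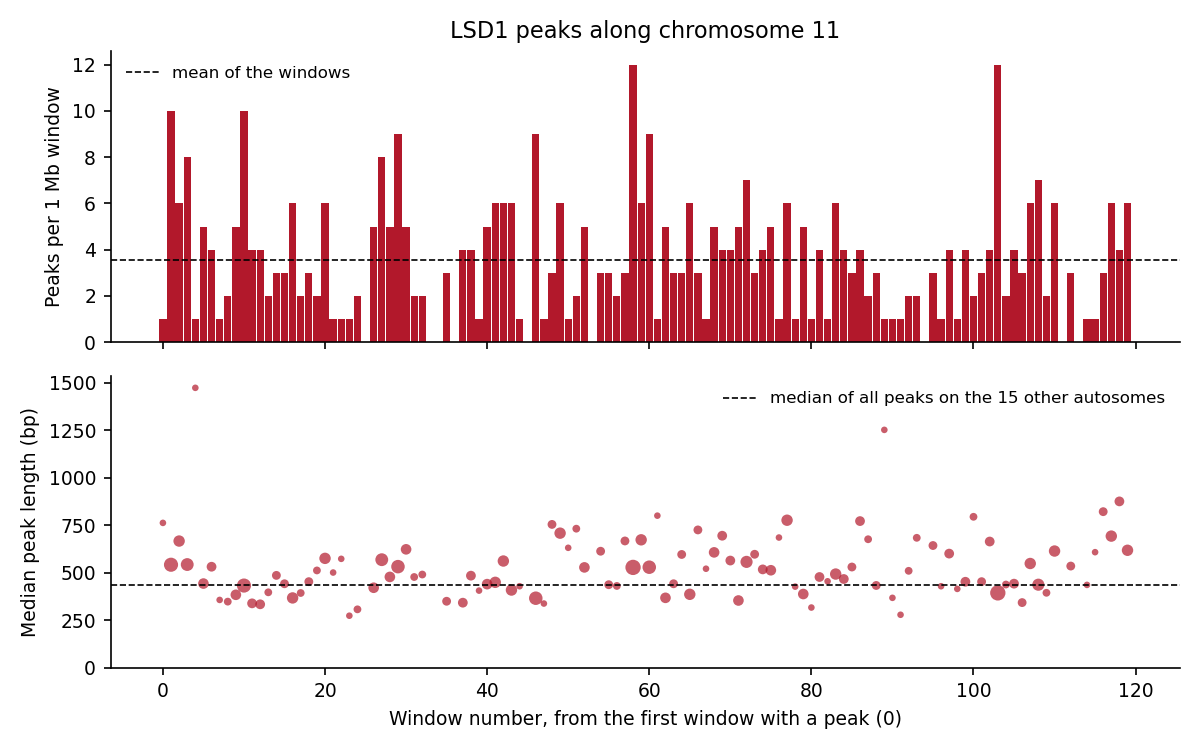
Peaks per 1 Mb window along chromosome 11 (top, dashed line at the mean of 3.54) and the median peak length in bp of each window (bottom, larger points for more peaks, dashed line at 436 bp, the median of the 15 other autosomes), with windows numbered from the first one that holds a peak. Windows 58 and 103, with 12 peaks each, are the fullest, and most of the 20 windows numbered 58 to 77 have a median length above the line.

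Among bins of 20 Mb with at least 20 peaks, length and score were highest in the stretch from 60 to 80 Mb. It held 93 peaks, with a median length of 548 bp (interval 495 to 610 bp) and a median score of 111.81 (interval 86.61 to 126.42). The 5 other bins with at least 20 peaks had medians of 442 to 479 bp and 75.66 to 84.51. Of the 93 peaks, 39 (41.9%, exact interval 31.8 to 52.6%) were in the top score class, against 28.3% on the rest of the chromosome. From 500 bp to under 1 kb long were 53 (57.0%), against 43.3% of all peaks of the chromosome. Of its 20 windows of 1 Mb, 17 had a median length above 436 bp, against 59 of the 91 other windows of the chromosome that held a peak. On the 15 other autosomes there were 99 such bins: 6 had a median length at or above 548 bp, and none had a median score as high, with 94.08 the highest. None had as high a share of top-class peaks either. The nearest were 41.3% (chromosome 5, 0 to 20 Mb) and 40.6% (chromosome 13, 100 to 120 Mb), inside the interval of the stretch. The stretch was singled out after the values were seen, and its edges are only those of the bins.

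Bins that took in part of that stretch also had higher values. With bins moved in steps of 5 Mb, the 7 bins that start from 45 to 75 Mb had median lengths of 513 to 548 bp and median scores of 89.1 to 111.81. All 7 overlap the stretch from 60 to 80 Mb, so they alone cannot show how far the higher values ran outside it. Long peaks also lay before it. The 1 Mb windows from 50 to 54 Mb had median lengths of 631 to 754 bp and median scores of 135.1 to 203.2, on 1 to 6 peaks each. From 54 to 60 Mb, where 1 window was empty, the medians were 430.5 to 667 bp and 69.24 to 125.71. The whole bins on either side had 442 bp and 82.45 (40 to 60 Mb, which takes in these windows), and 477 bp and 75.66 (80 to 100 Mb). The bin from 85 to 105 Mb, with a median length of 530 bp, had a median score of only 79.77. Among 337 such bins on the other autosomes the highest median score was 106.75 and the highest median length 644 bp, both on chromosome 5. Without the stretch from 60 to 80 Mb, the median length of the other 332 peaks of chromosome 11 was 464 bp (interval 440 to 503 bp), 28 bp above the pooled median, and 14 of the 15 other autosomes lay below it, chromosome 17 being the exception. Their median score of 81.05 (interval 75.11 to 87.9) was still above that of all 15, but the highest of those, 80.6, lay inside the interval. Leaving out any other 20 Mb bin gave medians of 483 to 500.5 bp.

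Within score classes the stretch had longer peaks than the rest of the chromosome in 3 of 4 classes. In the lowest class its median length was 372.5 bp against 342.5 bp in the rest. In the second class its median length was 433 bp against 385 bp in the rest, and in the third 523 bp against 494.5 bp. In the top class it was 657 bp against 670.5 bp. The classes of the stretch hold 14 to 39 peaks each. Its highest peaks were those at 71790180 to 71791186 (score 727.64), 77428009 to 77429224 (468.18) and 61958557 to 61959634 (421.47), from 1007 to 1216 bp long. Of the 93 peaks, 3 were 1 kb or longer.

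Density also varied along the chromosome. It was 4.53 peaks per Mb from the first peak to 20 Mb, 4.65 from 60 to 80 Mb and 2.45 from 80 to 100 Mb, the sparsest bin. Between these, the bins had 2.95 (20 to 40 Mb), 3.35 (40 to 60 Mb) and 3.50 (100 to 120 Mb). The last 1.83 Mb held 10 peaks with a median length of 684 bp, too few to set beside the bins.

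Close neighbours were less frequent on chromosome 11 than on the pooled other autosomes. A neighbouring start lay within 10 kb for 101 peaks (23.8%, exact interval 19.8 to 28.1%), against 28.4%. Within 1 kb it did for 14 peaks (3.29%, exact interval 1.81 to 5.47%), against 6.66%. The median distance between consecutive starts was 136.7 kb, against 101.7 kb. Part of the comparison rests on the dense regions of other chromosomes: without them the share within 10 kb on the others was 25.0%, inside the interval of chromosome 11.

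**Figure D5:**
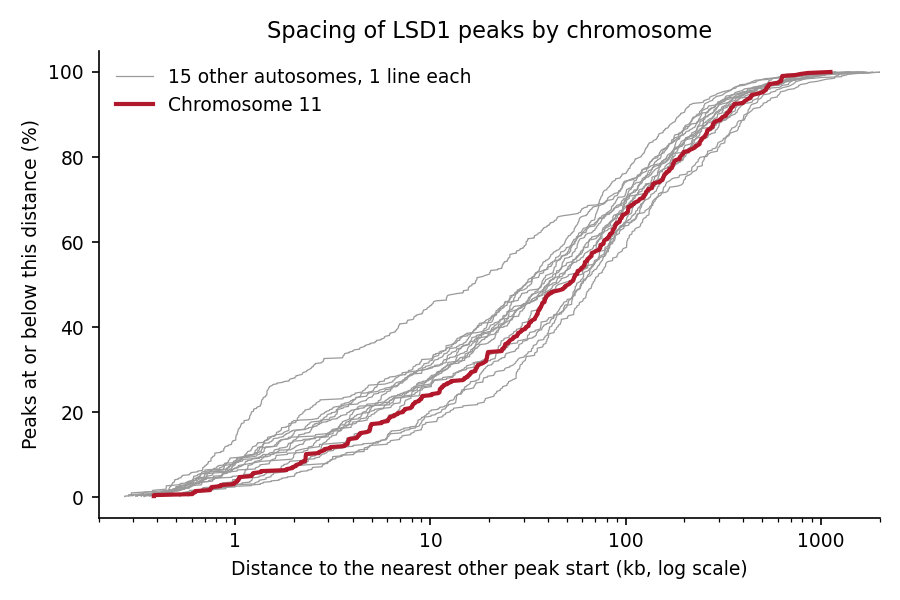
Cumulative share of peaks (%) against the distance to the nearest other peak start (kb, log scale), with chromosome 11 in red and each of the 15 other autosomes as a grey line. At 10 kb the red line stands at 23.8%, above 3 grey lines and below the other 12.

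The 14 peaks with a neighbour within 1 kb formed 7 pairs. In 6 of them the gap between the peaks was 3 to 223 bp, and in the other 1 it was 615 bp. The tightest was at 8720780 to 8721985, where peaks of 380 and 823 bp (scores 92.33 and 351.11) were 3 bp apart. A pair at 3342413 to 3343439 was 46 bp apart. Joining all peaks with gaps of at most 1 kb left 412 peaks on chromosome 11, with a median length of 492 bp against 441 bp on the other autosomes.

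Groups were small, and their number was close to the median of 32 on the other autosomes. A group was taken as a chain of 3 or more peaks in which each start lies at most 50 kb from the next. Chromosome 11 had 30 groups with 105 peaks (24.7%, exact interval 20.7 to 29.1%), against 32.4% of peaks on the other autosomes. Without dense regions the share on the others was 28.9%, inside that interval, and the ratio of 0.856 had an interval of 0.716 to 1.01. Of the 30 groups, 20 had 3 peaks, 7 had 4, 1 had 5 and 2 had 6. The largest group on the other autosomes ranged from 4 peaks on chromosome 9 to 66 on chromosome 14. Only 17 peaks (4%, exact interval 2.35 to 6.33%) lay in groups of at least 5, against 15.1% on the others.

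The largest groups were loose. The group at 5171249 to 5281915 had 6 peaks over 110.7 kb, which were 404 to 784 bp long and scored 99.21 to 299.4. The group at 60063415 to 60153295, in the fullest window, had 6 peaks over 89.9 kb, which were 408 to 793 bp long and scored 59.52 to 206.96. The next was 18805516 to 18889343 with 5 peaks over 83.8 kb, of which the shortest was 253 bp. Peaks covered 2.83 to 3.94% of these 3 groups. Over all 30 groups the span ran from 3.59 to 110.7 kb, and 25 groups held at least 1 peak of the top score class. As that class made up 31.3% of all peaks of the chromosome, groups of this size would often hold 1 anyway.

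Peaks of chromosome 11 were longer than those of the other autosomes whether or not they had neighbours. The 214 peaks with no other start within 50 kb (50.4% of the chromosome, against 46.1%) had a median length of 456 bp (interval 429 to 489 bp) against 409 bp. The 106 peaks in pairs had 499 bp (449 to 584 bp) against 436 bp. The 105 peaks in groups had 535 bp (482 to 590 bp) against 494 bp, whose value lies inside the interval. The median scores followed the same order, with 80.69 and 73.14 for the first kind, 82.25 and 78.73 for pairs, and 104.06 and 86.77 for groups. Among peaks without neighbours, 12 (5.61%, exact interval 2.93 to 9.59%) were 1 kb or longer, against 2.42% on the other autosomes, while in groups the shares were 5.71% and 8.91%.

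The highest-scoring peaks lay both alone and in groups. The top score, 783.27, belonged to a peak of 1130 bp at 43732631 to 43733760, whose nearest neighbour started 23.8 kb away. Next were the peak at 71790180 to 71791186 in a group of 3, and a peak of 828 bp at 121363138 to 121363965 (score 691.17) near the distal end of the chromosome. The other 7 of the highest 10 had scores from 387.49 to 582.68. Of the 10, 5 had no other start within 50 kb, 4 lay in groups of 3 and 1 in a pair, and 7 were 1 kb or longer. The highest peaks without neighbours were the one near the distal end, then 3097274 to 3100087, 77428009 to 77429224, 61958557 to 61959634 and 17286428 to 17287268.

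The start of the chromosome held the widest peaks. The list gives 4 peaks in the first 200 kb after position 3000000, where the first peak begins, and 14 of the 16 autosomes had their first peak before 3.2 Mb. Of these 4, the peaks at 3000985 to 3003058 (2074 bp, score 582.68) and 3097274 to 3100087 (2814 bp, score 546.05) were the 2 of 2 kb or more. The peak at 3000000 to 3000761 (762 bp, score 519.45) was sixth by score. The next longest on the chromosome were 5755009 to 5756485 (1477 bp), 6380826 to 6382297 (1472 bp) and 109678153 to 109679452 (1300 bp). They had scores of 88.4, 256.94 and 307.72, and none had another start within 50 kb. Long peaks were mostly high in score: the 23 of 1 kb or longer had a median score of 256.94, and 2 of them scored below the list's median of 78.25.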

How the data were processed

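Per the submitters' processing notes, reads were aligned with BWA to mm9. Per the file headers, MACS in Galaxy made the peak calls, and the deposited list compares LSD1 ChIP with input. The score of each peak is the authors' own. Not given in the sources used here are its scale, the MACS version and settings, and read filters. The list holds no read numbers, so depth is unknown.

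Positions are 1-based in mm9. A genome and annotation of mm9 were not used here, so the planned analysis of genomic location was not run and no sequence is printed. Intervals are exact (Clopper-Pearson) for shares and from order statistics for medians. The peaks and stretches named are the 10 highest scores, the 5 longest, the 3 largest groups, the 3 fullest windows (with 1 tied), the 3 longest peak-free stretches and the 5 highest isolated peaks. The members, measures and alternatives were chosen with earlier results of these data known. The 20 Mb bins, the stretch from 60 to 80 Mb and the weighting by score class were added after seeing the data. The functions were tested on simulated data. Values were computed in Python 3.11.15 with pandas 2.3.3, numpy 2.4.6 and scipy 1.17.1, and plotted with matplotlib 3.10.9.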

Additional observations from a re-analysis of the deposited data

How the results depend on the processing

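Over 48 alternatives of 6 comparisons, 35 stayed within the interval of the reported value (within 1.5 times for the variance-to-mean ratio, which has none), 11 moved in the same direction and 2 reversed. The reversals concern peaks of 1 kb or longer, whose ratio to the others was 1.19: it was 0.957 against all 18 other autosomes and 0.676 at 2 kb or longer. The excess in median length of 50 bp was 16.4 bp for the mean. As a weighted mean of the differences of medians within 4 and 10 score classes, another measure, it was 18.8 and 17.7 bp. The excess in median length of 50 bp compares with the following medians. It was 45 to 55 bp under 5 alternatives that kept the median and all of chromosome 11 or its higher-scoring, narrower or joined peaks. Without the stretch from 60 to 80 Mb it was 28 bp. The density ratio of 0.896 was 0.787 against all 18 autosomes, and 0.931 to 0.973 under 4 alternatives whose intervals included 1. The ratio of shares with a neighbour within 10 kb, 0.837, was 0.495 at 1 kb, and its interval included 1 among higher-scoring peaks (0.833), without the 1% widest (0.851), with peaks joined (0.927), without dense regions (0.95) and at 50 kb (0.921). The ratio of shares in groups, 0.763, was 0.586 among peaks scoring at or above the list median, 0.635 against all 18 autosomes, 0.359 and 0.899 with linking distances of 10 and 100 kb, and 0.265 for groups of at least 5 peaks. The ratio of variance-to-mean ratios, 0.506, was 0.803 with peaks within 10 kb counted once. The cause of these shifts was not tested. No paired analysis was possible because there was 1 library of each kind, which also leaves no replicate to drop.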

Other observations

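The last megabase before the final peak of chromosome 11 held 8 LSD1 peaks, 6 of them in pairs. Their lengths ran from 321 to 1028 bp, and apart from the peak with a score of 691.17 their scores lay between 57.17 and 138.67. The pair at its end, 121829141 to 121829730 and 121830192 to 121830512, had starts 1051 bp apart.

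Of the 23 peaks of 1 kb or longer on chromosome 11, all but the widest 2 were 1477 bp long or less. The lowest score among the 23 was 55.58, at 91785027 to 91786277, a peak of 1251 bp that ends the peak-free stretch from 90138281.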
